A study of Mus musculus with 7 samples.

Results

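The ATP-binding cassette (ABC) family was described in livers of C57BL/6 male mice aged 4 months, on Affymetrix Mouse Gene 1.0 ST arrays. In the HDAC3 knockout group (3 arrays), mice had been injected with an adeno-associated virus (AAV) carrying Cre recombinase. In the rescued group (4 arrays), the same AAV-Cre was co-injected with an AAV for Flag-tagged wild-type HDAC3, so that Cre was given to every mouse and the rescued mice carried an extra vector. All mice ate normal chow ad libitum, and livers were taken 2 weeks after injection at 5 pm (ZT10). HDAC3 is a histone deacetylase of the NCoR and SMRT corepressor complexes. The Hdac3 allele of the mice and the promoters of both vectors are not given in the sources used here. The members were all genes with a symbol of the form Abc, a letter a to g and a number, read at the brightest probe set annotated with that symbol alone. This gave 48 of 19933 genes, from 49 probe sets. There were 16 genes in subfamily A, 9 in B, 10 in C, 3 in D, 1 in E, 3 in F and 6 in G.

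ABC proteins bind and hydrolyse ATP at paired nucleotide-binding domains, and most use it to move lipids, bile constituents, drugs or peptides across a membrane. In liver, pumps of subfamilies B, C and G on the canalicular membrane of hepatocytes secrete bile acids, phospholipid, sterols and conjugated anions, and other C members export anions across the sinusoidal membrane. Most of subfamily D carries acyl-CoAs into peroxisomes, and the E and F proteins have no membrane part and act in translation. Values are log2 probe set intensities as deposited. Differences are knockout minus rescued, and a gene was called at a Benjamini-Hochberg adjusted p under 0.05 in limma's moderated test over all 19933 genes. Levels of different genes come from different probes and are not ranked against each other.

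The Hdac3 transcript itself was at 8.93, 8.75 and 9.07 in the knockout livers, against 9.23, 9.45, 9.55 and 9.38 in the rescued livers (difference -0.48, adjusted p = 0.0124 in limma). The call held in every scaling but was lost without knockout replicate 1 (adjusted p = 0.05001 in limma). The rescued mice carried the HDAC3 vector, and whether this probe set also reads the vector's transcript was not tested. Every knockout array had a higher median intensity (105.01 to 110.85) than every rescued array (96.289 to 102.33), and the median difference of all genes was 0.09 as deposited. A gene's difference of about that size cannot be told apart from this offset. The hepatocyte markers (6 of 8 listed were measured, none called and none at an unadjusted p under 0.05 in limma) summed to intensities of 66417 to 68005 in knockout and 65558 to 66726 in rescued livers. In whole liver, fewer cells of a type and less RNA per cell cannot be told apart.

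The family moved in both directions and by mostly small amounts. Of the 48 members, 11 were called (22.9%), against 14.4% of all genes. Higher in knockout livers were 6 members, Abcc4, Abca3, Abcb6, Abca17, Abcb4 and Abcg4, where 9.54% of all genes were called higher. Lower were 5, Abca8a, Abca2, Abca6, Abcc6 and Abcf3, where 4.85% of all genes were called lower. A call with a difference of at least 1.5-fold was made for 3 members, Abcc4, Abca8a and Abca3, and for 1.61% of all genes. The median difference of the 48 members was 0.07, beside 0.09 for all genes. The groups' arrays did not overlap for 13 members higher and 6 lower, where the shares of all genes were 21.0% and 8.56%.

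After cyclic loess 4 members were higher and 3 lower, where 4.38% and 5.36% of all genes were. The counts were the same after quantile normalization, and after median centring 2 were higher and 7 lower. The same call with the same sign in the deposited values and in all 3 rescalings was made for 5 members, and for 6.67% of all genes. They were Abcc4 and Abca3 (higher, as were 2.61% of all genes) and Abca8a, Abca6 and Abcc6 (lower, as were 4.06%). Of the 11 calls, 4 held with each array left out in turn, those of Abcc4, Abca3, Abca8a and Abcc6. A level below which 95% of 1196 olfactory and vomeronasal receptor genes lay, 6.21, served as a guide to what is dim. In neither group did the mean of 9 members exceed it: Abca4, Abca12, Abca13, Abca14, Abca15, Abca16, Abca17, Abcb1b and Abcb5. Among these the only call was that of Abca17. Of the 39 members above that level, 10 were called (25.6%), beside 17.3% of all genes above it. Of all genes not above it, 8.38% were called.

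**Figure D1:**
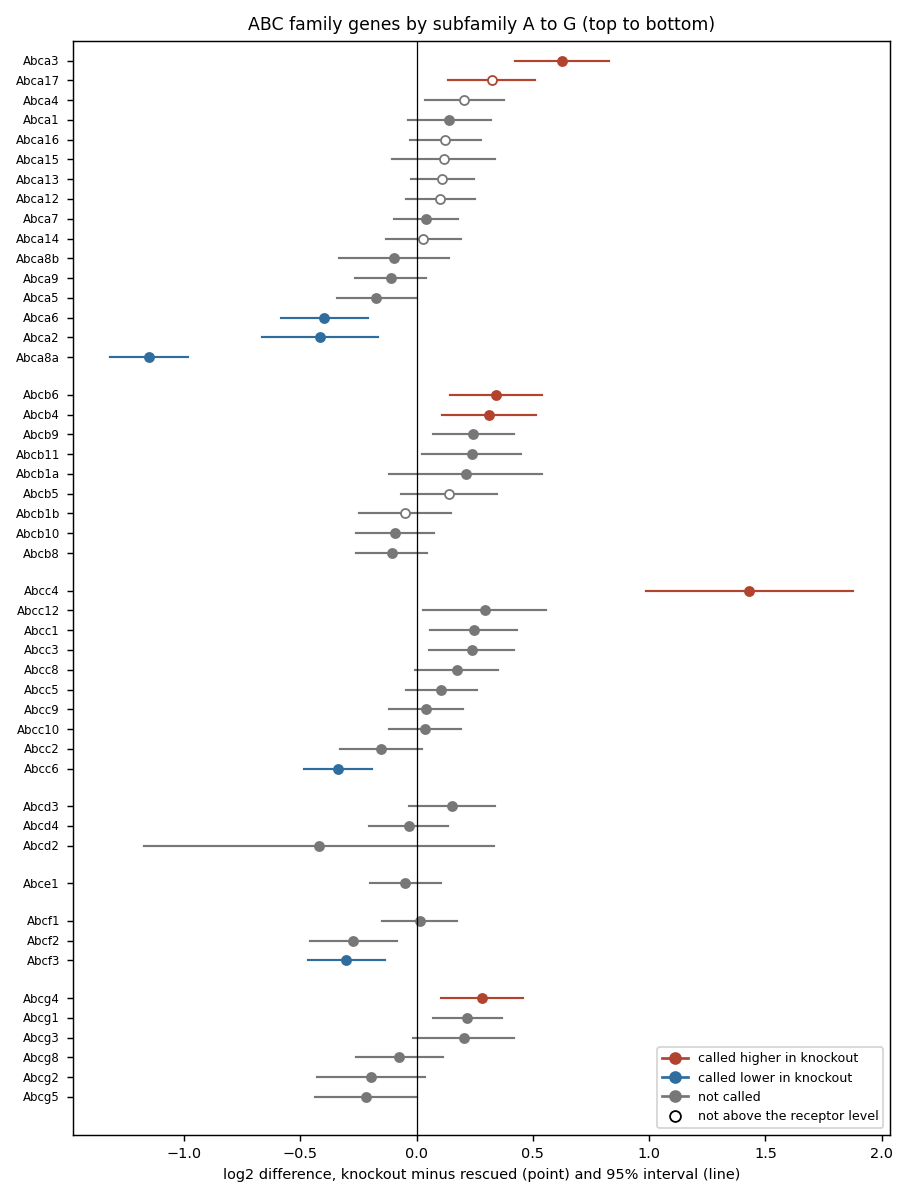
Log2 difference, knockout minus rescued, of the 48 ABC genes (points) with 95% intervals (lines) from limma, in subfamilies A to G down the page and ordered by difference within each. Abcc4 at 1.43 and Abca8a at -1.15 lie far from the other members, and the uncalled Abcd2 has the widest interval.

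**Figure D2:**
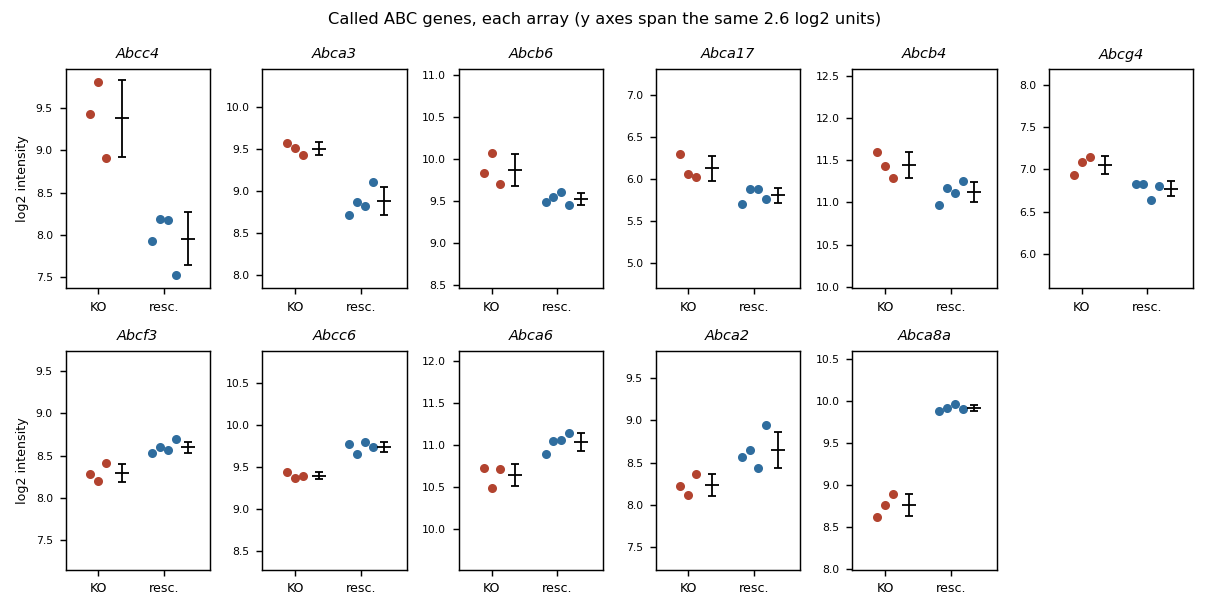
Log2 intensity on each knockout (KO, n = 3) and rescued (resc., n = 4) array of the 11 called ABC genes, with mean and SD in black. In each of the 11 panels no knockout array overlaps a rescued array.

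Among the pumps for organic anions, Abcc4 had the largest rise of the family. Abcc4 (MRP4) exports conjugated bile acids, cyclic nucleotides and other anions from hepatocytes across the sinusoidal membrane. Its level was 9.43, 9.81 and 8.90 in the knockout livers, against 7.92, 8.19, 8.17 and 7.52 in the rescued livers. All 3 knockout values lay above all 4 rescued values, and both groups were widely spread, at 9.38 ± 0.45 (SD, n = 3) and 7.95 ± 0.31 (SD, n = 4). The difference was 1.43 (SE 0.20), or 2.69-fold, with adjusted p = 0.00241 in limma, and lay between 1.22 and 1.67 with each array left out.

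Abcc6, whose protein in hepatocytes is needed for ATP release and for restraint of ectopic mineralization, was lower. It was at 9.44, 9.36 and 9.39 in knockout livers and at 9.77, 9.65, 9.79 and 9.73 in rescued livers. The groups lay apart with little spread, and the difference was -0.34 (SE 0.07, adjusted p = 0.0120 in limma), or 1.26-fold lower. Abcc3 (MRP3), the other main sinusoidal exporter of conjugates, was at 11.86, 12.03 and 11.73 against 11.61, 11.68, 11.71 and 11.55. Its arrays did not overlap, but the difference of 0.24 was not called (adjusted p = 0.0728; 95% interval 0.06 to 0.42). Nor was that of Abcc1 (MRP1), at 0.25 (adjusted p = 0.0709). Without knockout replicate 3 both Abcc3 and Abcc1 were called higher (adjusted p = 0.0422 and 0.0419 in limma). Abcc5, Abcc10 and Abcc12, which belong to the same branch, had differences of 0.11, 0.04 and 0.29, none called. The sulfonylurea receptor genes Abcc8 and Abcc9, whose proteins are channel subunits, differed by 0.17 and 0.04, also not called.

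The promoter windows of the 3 members with the largest differences are shown here, since these are the calls of at least 1.5-fold. Each runs from 250 bases before to 50 after a RefSeq start on GRCm38.p6, written in the direction of the gene. Of the 48 members 38 had a window, 45 windows in all. Those without a window were Abca6, Abcb8, Abcc1, Abcc3, Abcc6, Abcc8, Abcd2, Abcd4, Abcg1 and Abcg4, of which Abca6, Abcc6 and Abcg4 were called. Capitals mark matches, on either strand, to TGACNNNGC (the core letters of the antioxidant response element bound by NRF2) or CACGTG (the E-box letters bound by CLOCK and BMAL1). The Abcc4 window (the more upstream of 2) is chr14:118706170-118706469 on the minus strand, that of Abca3 is chr17:24351773-24352072 on the plus strand, and that of Abca8a is chr11:110095888-110096187 on the minus strand.
Abcc4: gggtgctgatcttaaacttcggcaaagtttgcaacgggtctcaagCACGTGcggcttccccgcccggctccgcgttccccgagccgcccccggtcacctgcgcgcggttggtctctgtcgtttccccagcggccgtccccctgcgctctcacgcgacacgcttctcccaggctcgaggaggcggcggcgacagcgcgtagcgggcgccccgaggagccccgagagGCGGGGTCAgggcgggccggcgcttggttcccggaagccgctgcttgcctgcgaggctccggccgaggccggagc
Abca3: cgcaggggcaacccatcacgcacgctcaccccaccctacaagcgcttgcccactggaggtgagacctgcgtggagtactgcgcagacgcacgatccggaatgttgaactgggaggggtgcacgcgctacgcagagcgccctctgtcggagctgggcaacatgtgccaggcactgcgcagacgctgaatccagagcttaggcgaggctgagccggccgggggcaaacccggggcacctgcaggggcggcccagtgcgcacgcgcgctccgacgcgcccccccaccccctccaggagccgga
Abca8a: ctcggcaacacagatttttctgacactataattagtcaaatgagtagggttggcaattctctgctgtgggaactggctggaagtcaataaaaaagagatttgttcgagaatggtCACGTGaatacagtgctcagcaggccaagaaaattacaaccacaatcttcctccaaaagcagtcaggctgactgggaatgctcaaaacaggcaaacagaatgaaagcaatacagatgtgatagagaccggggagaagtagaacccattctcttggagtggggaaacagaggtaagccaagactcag
The printed Abcc4 window held 1 match to TGACNNNGC, in reverse, and 1 to CACGTG, the Abca8a window 1 match to CACGTG, and the Abca3 window neither. Of all 32851 windows, 12.4% held TGACNNNGC and 7.15% CACGTG. Among ABC genes, TGACNNNGC was found in windows of Abca8b, Abcb1a, Abcc2, Abcc4 and Abcc10, and CACGTG in windows of Abca1, Abca15, Abca8a, Abca8b, Abcc4 and Abcf1. The nuclear receptor letters AGGTCA, searched as a direct repeat with 1 or 4 bases between copies (DR1 and DR4) and as an inverted repeat with 1 base between copies (IR1), were found in none of the 45 windows, and in 0.0396%, 0.0152% and 0.00913% of all windows. No motif overlapped another in the printed windows. These are matches of letters, not measured binding.

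Abca8a, in a rodent gene pair related to human ABCA8, had the largest fall of the family. Its level was 8.63, 8.76 and 8.90 in knockout livers, against 9.88, 9.92, 9.96 and 9.90 in rescued livers. The highest knockout array was about 1 log2 unit below the lowest rescued array, and the rescued values were tightly grouped, with means of 8.76 ± 0.13 for the knockout (SD, n = 3) and 9.91 ± 0.04 for the rescued group (SD, n = 4). The fall was by 1.15 on the log2 scale (SE 0.08), or 2.22-fold, with adjusted p = 1.99e-05 in limma. Abca6, of the same gene cluster, was at 10.72, 10.49 and 10.71 in knockout livers and at 10.89, 11.05, 11.06 and 11.15 in rescued livers. Its difference of -0.40 (adjusted p = 0.0167 in limma) was called in every scaling, but not without knockout replicate 2 or rescued replicate 3, with a range of -0.45 to -0.32.

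Abca8b, Abca8a, Abca9, Abca6 and Abca5 follow one another on chromosome 11 in the RefSeq gene table of GRCm38.p6. All 5 differences were negative, but those of Abca8b (-0.10), Abca9 (-0.11) and Abca5 (-0.17) were not called as deposited (adjusted p = 0.515, 0.259 and 0.135 in limma). The 95% intervals of these 3 reached down to -0.34, -0.26 and -0.34, while that of Abca8a ran from -1.32 to -0.99. After median centring Abca5 was called lower (-0.26, adjusted p = 0.0334 in limma), while Abca8b and Abca9 were not called. A difference in effect between the neighbours was not tested. Next to Abca5 lies Map2k6, a stress kinase gene that is no member and was chosen for its position. It averaged 7.16 in knockout livers against 8.09 in rescued livers, 1.91-fold lower (adjusted p = 0.000759 in limma). The gene on the other side, 1700012B07Rik, differed by 0.29 and was not called (adjusted p = 0.0603). Abca8a and Abca8b are close paralogs, and their probes can share signal.

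**Figure D3:**
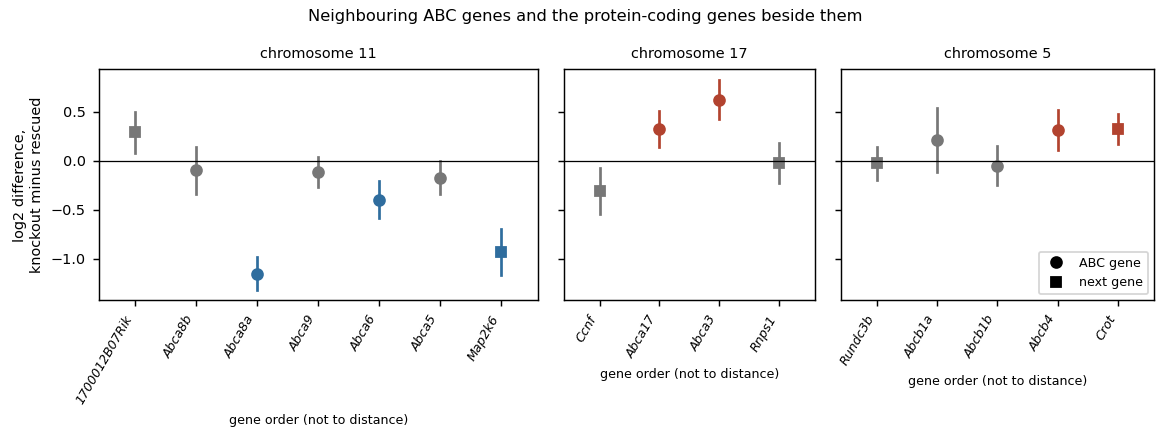
Log2 difference, knockout minus rescued, with 95% intervals, for neighbouring ABC genes (circles) and the next protein-coding gene on each side (squares), in chromosome order and not to distance. Red and blue are called higher and lower, grey is not called. On chromosome 11 the called falls of Abca8a, Abca6 and Map2k6 stand among smaller, uncalled differences.

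Abca3, which loads phospholipid into lysosome-like organelles and is best known from lung surfactant, was higher in the knockout. It was at 9.57, 9.51 and 9.42 in knockout livers, against 8.72, 8.87, 8.83 and 9.11 in rescued livers. No arrays overlapped, and the difference was 0.62 (SE 0.09), or 1.54-fold, with adjusted p = 0.00307 in limma. Its neighbour Abca17 is read from the opposite strand, and the RefSeq starts of the pair lie 964 bases apart. Abca17 was at 6.30, 6.06 and 6.03 against 5.70, 5.88, 5.88 and 5.76. This difference of 0.32 was called as deposited (adjusted p = 0.0328 in limma) but in none of the 3 rescalings, where it was 0.17 to 0.23, and was lost with all but 1 of the arrays left out. On their outer sides, Ccnf (-0.31) and Rnps1 (-0.02) were not called.

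Of the other lysosomal members, Abca2, a lipid transporter best known from brain, was at 8.22, 8.11 and 8.36 against 8.57, 8.65, 8.43 and 8.94. The groups came close to overlapping, and the difference of -0.42 (adjusted p = 0.0359 in limma) was not called after quantile normalization (0.0733) or cyclic loess (0.0653), nor when any of knockout replicates 1 and 2 and rescued replicates 2 and 4 was left out, over a range of -0.49 to -0.32. Abcb9, a lysosomal peptide transporter, differed by 0.24 (adjusted p = 0.0596), and Abcd4, which takes part in lysosomal cobalamin release, by -0.03 (adjusted p = 0.759).

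Canalicular pumps showed small differences in both directions, and 1 of 8 was called (12.5%, near the 14.4% of all genes). Abcb4 (MDR3 in human), the flippase that supplies phosphatidylcholine to bile, was at 11.59, 11.44 and 11.29 in knockout livers, against 10.97, 11.17, 11.12 and 11.25 in rescued livers. Its lowest knockout value was just above its highest rescued value. The difference of 0.31 (SE 0.09), or 1.24-fold, had adjusted p = 0.0453 in limma and lost its call after quantile normalization (0.0679) and median centring (0.121). It was also lost when knockout replicate 1, knockout replicate 2 or any rescued array was left out, over a range of 0.23 to 0.39. The gene beside Abcb4, Crot, which encodes a peroxisomal carnitine acyltransferase, was also called higher (0.33, adjusted p = 0.0157), a call lost after median centring (0.0577) and without knockout replicate 1, while Abcb1a and Abcb1b on its other side were not.

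Abcb11 (BSEP), the bile salt export pump, was at 11.61, 11.57 and 11.73 against 11.39, 11.45, 11.17 and 11.59. The groups overlapped, and the difference of 0.24 had adjusted p = 0.108 in limma and a 95% interval of 0.03 to 0.45. Abcc2 (MRP2), which secretes bilirubin conjugates, was at 12.12, 12.15 and 11.91 against 12.13, 12.22, 12.31 and 12.19 (difference -0.15, adjusted p = 0.187). Abcg2, an exporter of drugs and urate, was at 8.70, 8.79 and 8.52 against 8.82, 8.70, 8.81 and 9.14 (difference -0.20, adjusted p = 0.198). For Abcc2 and Abcg2, too, the groups overlapped.

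The sterol pump is made of Abcg5 and Abcg8, whose genes lie head to head with RefSeq starts 110 bases apart. Abcg5 was at 11.005, 10.80 and 11.07 in knockout livers and at 11.01, 11.07, 11.27 and 11.35 in rescued livers (difference -0.22, adjusted p = 0.141 in limma). Abcg8 was at 9.64, 9.87 and 9.90 against 9.75, 9.83, 9.96 and 9.96 (difference -0.07, adjusted p = 0.541). Neither was called, and the 95% interval for Abcg8 ran from -0.26 to 0.12. The drug efflux pump gene Abcb1a varied between knockout livers, at 6.93, 7.59 and 7.09 against 7.04, 7.003, 7.20 and 6.73 (difference 0.21, adjusted p = 0.318). Its close paralog Abcb1b was dim, at 5.71, 5.41 and 5.56 against 5.49, 5.70, 5.72 and 5.54, with adjusted p = 0.705, and probes of the pair can cross-hybridise.

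**Figure D4:**
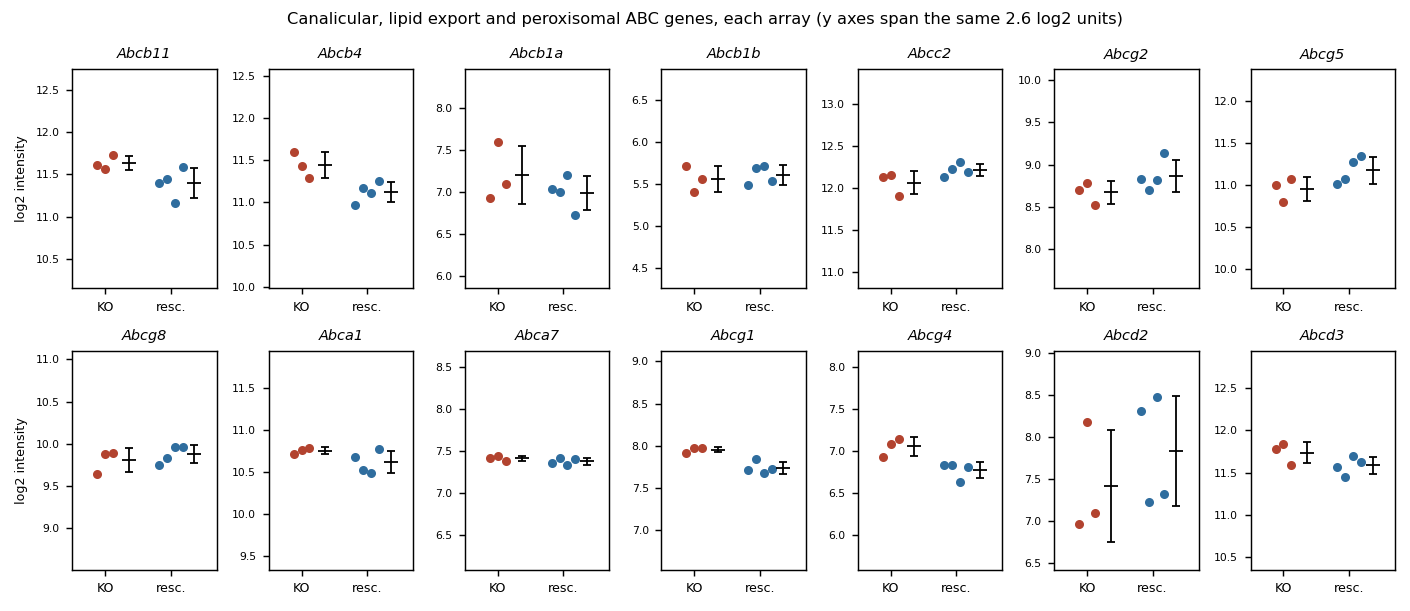
Log2 intensity on each knockout (KO, n = 3) and rescued (resc., n = 4) array of the canalicular (Abcb11 to Abcg8), cellular lipid export (Abca1 to Abcg4) and peroxisomal (Abcd2 and Abcd3) ABC genes, with mean and SD in black. Abcd2 spans more than 1 log2 unit within each group, and most other panels show overlap between groups.

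Around these pumps, 12 of 13 listed genes of bile acid and bile lipid transport were measured, and 2 were called (16.7%, near the 14.4% of all genes), both lower. They were Slco1a1, an organic anion uptake carrier (-2.27, in every scaling), and Slco2b1, another (-0.29). The call of Slco2b1 was lost after quantile normalization (adjusted p = 0.0602 in limma) and cyclic loess (0.0770) and with any array but rescued replicate 2 left out. Of 12 measured regulators known to act on ABC genes, 1 was higher and 2 lower, beside 9.54% and 4.85% of all genes. The aryl hydrocarbon receptor gene Ahr differed by 0.45 (adjusted p = 0.0198 in limma), the LXR alpha gene Nr1h3 by -0.59 (adjusted p = 0.00163) and the FXR gene Nr1h4 by -0.36 (adjusted p = 0.0181). The call of Ahr was lost after median centring (adjusted p = 0.0638 in limma) and without knockout replicate 2 or 3, and that of Nr1h4 without knockout replicate 1 or rescued replicate 3. PXR (Nr1i2, -0.01), CAR (Nr1i3, -0.13) and NRF2 (Nfe2l2, 0.09) transcripts were not called. Of 11 measured NRF2 target genes outside the family, 4 were higher (beside 9.54% of all genes) and none lower. Among them Nqo1, a quinone reductase, differed by 1.04 (adjusted p = 0.00455) and Hmox1, haem oxygenase, by 0.65 (adjusted p = 0.00330), both in every scaling. Gstm1 (0.25) was called in no rescaling, and Txnrd1 (0.26) was not called after median centring (adjusted p = 0.174 in limma). Both calls were lost with any array but knockout replicate 3 left out. Srxn1 (0.45), not called as deposited (adjusted p = 0.0517 in limma), was called higher after quantile normalization (0.0375) and cyclic loess (0.0368).

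Exporters of cellular cholesterol and phospholipid differed little. Abca1, which loads lipid onto apolipoprotein A-I, was at 10.71, 10.76 and 10.79 in knockout livers and at 10.67, 10.52, 10.49 and 10.77 in rescued livers. The groups overlapped, and the difference of 0.14 (adjusted p = 0.224 in limma) had a 95% interval of -0.04 to 0.32. Abcg1, which exports sterol to lipoproteins, was at 7.91, 7.97 and 7.97 against 7.70, 7.84, 7.68 and 7.72. Its groups lay apart, and with a difference of 0.22 it missed the threshold at adjusted p = 0.0531, or passed it after quantile normalization (0.0484).

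Abcg4, related to Abcg1 and best known from brain, was at 6.93, 7.09 and 7.14 against 6.83, 6.83, 6.63 and 6.81. Its difference of 0.28 (adjusted p = 0.0414 in limma) was not called in any of the 3 rescalings, where it was 0.19 to 0.20, nor when any of knockout replicates 2 and 3 and rescued replicates 2, 3 and 4 was left out. Abca7, a phospholipid exporter, was at 7.42, 7.45 and 7.39 against 7.36, 7.42, 7.34 and 7.41. Its groups overlapped, and the difference of 0.04 had adjusted p = 0.661. Of 10 measured partners in cholesterol efflux and lipoprotein handling, 1 was higher and 1 lower, beside 9.54% and 4.85% of all genes. Higher was the phospholipid transfer protein gene Pltp (1.08, adjusted p = 0.0330 in limma), and lower was the endothelial lipase gene Lipg (-0.64, adjusted p = 0.0365). Neither call held in every scaling, and both were lost with some arrays left out. Another of these partners, Lcat (-0.20), was not called as deposited (adjusted p = 0.0588 in limma). It was called lower in all 3 rescalings (adjusted p = 0.0181 to 0.0193 in limma).

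Neither measured peroxisomal acyl-CoA transporter was called, and neither had an unadjusted p under 0.05 in limma. Abcd3 (PMP70) was at 11.78, 11.84 and 11.59 in knockout livers, against 11.57, 11.45, 11.69 and 11.63 in rescued livers. The difference of 0.15 (adjusted p = 0.208 in limma) had a 95% interval of -0.03 to 0.34. Of its partners in peroxisomes, 6 of 12 measured genes were higher and none lower, beside 9.54% of all genes called higher, and 3 of the 6 were called in every scaling. Of these, the thiolase genes Acaa1b and Acaa1a differed by 1.12 and 0.58, and Ehhadh, the bifunctional enzyme, by 1.09. Crot, Hsd17b4 and Pex5 were not called after median centring. The difference between Abcd3 and these genes was not tested. Abcd2 was the most variable member. It was at 6.97, 8.18 and 7.10 in knockout livers, against 8.31, 7.23, 8.48 and 7.32 in rescued livers, so that each group held arrays near 7 and arrays above 8. Its difference of -0.42 (adjusted p = 0.383) had a 95% interval of -1.17 to 0.33, and it was the only 1 of the 37 uncalled members whose interval reached a change of 1.5-fold.

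Among mitochondrial members, Abcb6, known for a part in porphyrin transport, was at 9.84, 10.07 and 9.70 against 9.49, 9.55, 9.62 and 9.46. The groups lay apart, and the difference of 0.34 (adjusted p = 0.0334 in limma), or 1.27-fold, was not called after median centring (0.0992) and was lost when knockout replicate 1, knockout replicate 2 or any rescued array was left out, over a range of 0.24 to 0.43. Abcb8 and Abcb10, which act in iron and haem handling, differed by -0.11 and -0.09, with no call. Of 10 measured genes of haem and iron-sulfur cluster synthesis, none was lower and 1 was higher (10%, near the 9.54% of all genes). The higher 1 was the mitoferrin gene Slc25a28 (0.25, adjusted p = 0.0439 in limma). That call was lost after median centring (0.126) and with any array but rescued replicate 1 left out. The 3 measured erythroid markers summed to intensities of 536 to 670 in knockout and 946 to 1115 in rescued livers. Of these 3, Alas2 was called lower (-1.15), as were 4.85% of all genes, while Klf1 (0.00134) and Slc4a1 (0.37) were not called. Their part in the difference of Abcb6 was not tested.

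Of the 4 measured members without a membrane part, 1 was called as deposited, beside 14.4% of all genes, and it was lower. Abcf3 was at 8.28, 8.20 and 8.41 in knockout livers, against 8.53, 8.60, 8.57 and 8.69 in rescued livers, with a difference of -0.30 (adjusted p = 0.0271 in limma). The call was lost after quantile normalization (0.0586) and cyclic loess (0.0563), and when any of knockout replicates 1 and 2 and rescued replicates 2, 3 and 4 was left out. Abcf2 differed by -0.27 (adjusted p = 0.0548), Abcf1 by 0.01 and the ribosome recycling factor gene Abce1 by -0.05, none called as deposited. The groups of Abcf2 did not overlap. Its fall was called after median centring (adjusted p = 0.0154 in limma) and without knockout replicate 1 (0.0315). Of 7 measured translation partners none was called in limma as deposited, and 2 had an unadjusted p under 0.05. Of these, Eif2ak4 (-0.14, adjusted p = 0.128) was called lower in all 3 rescalings (adjusted p = 0.0390 to 0.0438 in limma). Among ABC proteins whose symbols fall outside the family's naming, the peptide transporter genes Tap1 (-0.23, adjusted p = 0.0669) and Tap2 (-0.20, adjusted p = 0.0836) and the chloride channel gene Cftr (0.02) were not called as deposited. For Tap1 and Tap2 the groups did not overlap. Both were called lower after median centring (adjusted p = 0.0171 and 0.0374 in limma), but not after quantile normalization or cyclic loess.

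Some ABC genes, among them Abcc3, Abcc4 and Abcb1a, are also expressed in bile duct cells. The 7 measured cholangiocyte markers summed to intensities of 639 to 724 in knockout and 561 to 618 in rescued livers. None of the 7 was called in limma as deposited and 2 had an unadjusted p under 0.05, 4 of them (Cftr, Epcam, Cldn7 and Prom1) were not above the receptor level, and their median difference was 0.10 as deposited and -0.015 after cyclic loess. The keratin genes Krt19 and Krt7 differed by 0.07 and 0.10. The transcription factor gene Sox9 differed by 0.31, with no overlap between the groups (adjusted p = 0.0565 in limma), and was called higher after quantile normalization (0.0406) and cyclic loess (0.0433). The part of these cells in the rise of Abcc4 was not tested. Summed markers of endothelial cells, Kupffer cells, stellate cells and lymphocytes overlapped between the groups. Among the stellate markers Lrat, a retinol acyltransferase gene, was called higher (0.32, adjusted p = 0.0398 in limma), and 4 of 7 had an unadjusted p under 0.05. Among the 7 endothelial markers Clec4g, a lectin gene of sinusoidal endothelium, was called lower (-0.29, adjusted p = 0.0477). The called share of both lists was 14.3%, beside 14.4% of all genes. Neither call held in every scaling or with every array left out, and their part in the members' differences was not tested.

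**Figure D5:**
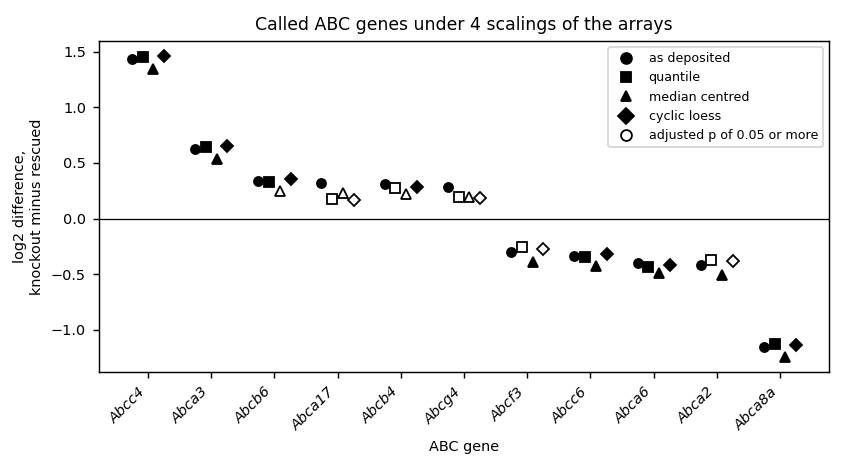
Log2 difference, knockout minus rescued, of the 11 called ABC genes under 4 scalings of the arrays, from the deposited values to cyclic loess. Open symbols have an adjusted p of 0.05 or more. Abcc4, Abca3, Abcc6, Abca6 and Abca8a are filled in all 4 scalings, and each of the 11 keeps its sign.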

How the data were processed

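Liver RNA was isolated with Trizol and biotin-labelled for the arrays, per the labels' protocols. The deposited file gives an intensity for each probe set on each of 7 arrays, and the range of the values shows a linear scale. RMA and Partek are the tools named in the submitters' processing notes, with no version, and the authors' last scaling step is unknown. The files name no genome build. Log2 was taken, with no filter on dim genes. Of 27541 probe sets, 21631 had 1 gene symbol in the platform annotation, 1317 several and 4593 none, and none with several named an ABC gene. All 48 members were matched to RefSeq GRCm38.p6. The test was limma's (version 3.58.1, R 4.3.3): lmFit and eBayes without covariates, two-sided, fitted on all genes and tested on simulated data. The labels call the arrays biological replicates, and their number (3 and 4) limits the precision. Motifs and neighbours were read with Python 3.11.15, and figures drawn with matplotlib 3.10.9.

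The members and gene lists were chosen with earlier results of these data known. The members named with every value are all called ones, those of the canalicular, lipid export and peroxisomal groups and, chosen after its values were seen, Abcc3. Others are named by role or for a large difference. Alternatives were 3 rescalings, 2 filters on dim genes, the mean of probe sets, a fit on all rows, a trended robust variance, weighted arrays, a replicate block, leaving out each array, and thresholds of 0.01 and 0.1.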

Additional observations from a re-analysis of the deposited data

Results flagged for a closer look

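In 3 members a rescued array stood far from the other 3 rescued arrays, measured as its gap to the nearest of them over the range of the group. For untied, normally distributed values chance gives such a gap in about 1 in 20 groups, and 48 members were examined. In each of these 3 members some rescued arrays shared the same value, so that this rate does not apply to them. For Abca12, a dim member, rescued replicate 3 was at 5.17 and the other 3 shared the value 5.22, a ratio of 1. For Abcf1, rescued replicate 1 was at 8.51 against 8.37 to 8.38 in the others (ratio 0.921). For Abcg4, rescued replicate 3 was at 6.63 against 6.81 to 6.83 (ratio 0.891), and without it the difference was 0.23 with adjusted p = 0.108 in limma.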

How the results depend on the processing

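The number of members called higher was 6. It was 2 after median centring, 2 with the replicate number as a block (replicate block), 2 at a threshold of 0.01 and 11 at 0.1, and 2 to 9 with an array left out. The count of 9 came without knockout replicate 3, where Abcb9 (adjusted p = 0.0229 in limma), Abcg3 (0.0255), Abcc1 and Abcc3 gained a call. The number called lower was 5. It was 3 after quantile normalization, 3 after cyclic loess, 3 with the replicate block and 1 at a threshold of 0.01, and 2 to 5 with an array left out. The lowest counts with an array left out were 2 higher, without knockout replicate 2 or rescued replicate 2, 3 or 4, and 2 lower, without knockout replicate 2. Same-numbered deviations from the group means correlated at 0.15, 0.0028 and 0.0053, beside -0.155 to 0.148 for arrays of unlike number. With 3 and 4 arrays these values cannot show whether the replicate numbers mark a pairing. The median difference of the members ranged from -0.019 to 0.086 over the alternatives. It was 0.071 as deposited, -0.0052, -0.019 and -0.0043 after quantile normalization, median centring and cyclic loess, and -0.011 among genes above the median level, with no test. No called member changed sign. Uncalled members with differences near 0 did so. After quantile normalization these were Abca12 (-0.037), Abca13 (-0.020), Abca14 (-0.11), Abca15 (-0.016) and Abcc5 (-0.014). After median centring they were Abca14 (-0.060), Abca7 (-0.050), Abcc10 (-0.053), Abcc9 (-0.050) and Abcf1 (-0.077). After cyclic loess they were Abca12 (-0.042), Abca13 (-0.017), Abca14 (-0.12), Abca15 (-0.013) and Abcc5 (-0.019). With an array left out, ranges crossed 0 for Abca14 (-0.012 to 0.069), Abca8b (-0.15 to 0.0089), Abcb1b (-0.12 to 0.027), Abcc10 (-0.0053 to 0.078), Abcd4 (-0.10 to 0.020), Abcf1 (-0.042 to 0.048) and Abcg8 (-0.12 to 0.0064). The causes were not tested. Signal near that of the receptor genes limits what can be said of the 9 dim members.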

Other observations

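Of the 48 members, 20 had an unadjusted p under 0.05 in limma, as did 7115 of 19933 genes. Abcb5 was the only member with another probe set of its own, which differed by 0.0093 beside 0.14 at the brighter one, neither called. Of the 14 measured protein-coding genes that lie next to a called member without being members, 3 were called in limma, where 14.4% of all genes were. Besides Crot these were Ap2m1, an endocytic adaptor gene beside Abcf3, with a difference of -0.24 (adjusted p = 0.0350), and Fut7, a fucosyltransferase gene beside Abca2, with a difference of 0.37 (adjusted p = 0.0283) and so opposite in sign to Abca2. The call of Ap2m1 held in every scaling, and that of Fut7 did not. Fut7 averaged 6.61 in knockout and 6.24 in rescued livers, near the receptor level of 6.21. These neighbours were chosen for position only.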
